A study of Homo sapiens with 6 samples.

Results

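The splicing factors described here are 40 human genes in 3 groups that act on the same step of gene expression, the removal of introns from new transcripts. They comprise 11 SR proteins (SRSF1 to SRSF11), 19 hnRNPs and 10 factors that bring the U2 small nuclear ribonucleoprotein to the branch site of the intron. They were found by gene symbol among the 61806 genes of the deposited table, and all 40 were present and had enough counts to be tested. The question put by the design was how 15-KETE, an oxidised fatty acid of the eicosanoid class, alters the transcriptome of airway epithelial cells. No splicing factor transcript was called as different between 15-KETE-treated and control cells. For 35 of 40 members more than 50% of the variation between libraries went with replicate number, against 76.7% of all genes tested. Members did not all move in the same direction, and the sizes of the 3 same-numbered differences were far from equal.

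All libraries came from BEAS-2B, a human bronchial epithelial line immortalised with viral genes. Cells labelled as 15-KETE treated gave 3 libraries and cells labelled as control gave the other 3, with replicate numbers 1 to 3 in each group. Dose, exposure time and vehicle are not given in the sources used here. The labels do not tell separate cultures from repeat preparations, and p-values therefore measure the spread between these libraries, which may be technical. Polyadenylated RNA was sequenced, and what was measured is therefore transcript abundance per gene, without isoforms, exon inclusion or protein.

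SR proteins carry RNA-binding domains and a tail rich in serine and arginine, bind exonic enhancers and help to define exons. The hnRNPs are abundant nuclear RNA-binding proteins that coat new transcripts, and many of them bind silencers and oppose exon inclusion. SF1 binds the branch point sequence, U2AF2 the polypyrimidine tract and U2AF1 the AG at the end of the intron, after which the SF3A and SF3B complexes anchor the U2 particle there. Transcripts of many of these proteins are themselves spliced to forms that nonsense-mediated decay removes, a feedback known from human and mouse cells. A count summed per gene does not separate such forms from the coding ones.

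U2AF1 and a second gene on the same chromosome are shown first, because reads from their coding sequence cannot be told apart. In the table U2AF1 lies on chromosome 21 from 43092956 to 43107570, and ENSG00000275895, which has no symbol there and is named U2AF1L5 in GENCODE release 29, lies on chromosome 21 from 6484623 to 6499248, both on the minus strand. The coding sequences of the transcripts U2AF1-201 and U2AF1L5-201 were identical over all 723 bases. SRSF2 and SRSF8 are shown beside them as a related pair that does differ, since SRSF8, on chromosome 11, is an expressed relative derived from a retrocopy of SRSF2, which lies on chromosome 17. Each line gives the first 150 coding bases in GENCODE 29, and capitals mark the bases that differ within a pair, which number 0 for the first pair and 15 for the second.
U2AF1: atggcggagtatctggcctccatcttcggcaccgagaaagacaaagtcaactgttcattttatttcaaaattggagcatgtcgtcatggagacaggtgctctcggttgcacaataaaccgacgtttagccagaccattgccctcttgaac
U2AF1L5: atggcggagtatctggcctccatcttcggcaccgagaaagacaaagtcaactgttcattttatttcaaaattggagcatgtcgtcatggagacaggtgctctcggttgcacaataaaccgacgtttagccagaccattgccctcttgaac
SRSF2: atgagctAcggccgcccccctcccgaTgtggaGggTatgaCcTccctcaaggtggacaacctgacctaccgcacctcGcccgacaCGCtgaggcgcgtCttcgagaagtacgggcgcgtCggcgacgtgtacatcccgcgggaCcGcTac
SRSF8: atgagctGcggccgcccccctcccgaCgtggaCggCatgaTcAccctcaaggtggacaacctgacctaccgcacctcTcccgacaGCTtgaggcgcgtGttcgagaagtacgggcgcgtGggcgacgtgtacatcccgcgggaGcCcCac

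Over the whole coding sequence SRSF2 (666 bases) and SRSF8 (849 bases) were 64.9% identical in a global alignment, and their longest shared run was 34 bases. Across the members, 17 of 40 shared no stretch of 100 bases with a transcript of any other GENCODE 29 gene on either strand, and 9 shared more than 10% of theirs. U2AF1 shared 88.4%, all of it with U2AF1L5, and SRSF1 shared 52.9%, mostly with the overlapping gene AC015813.2. SRSF9 shared 33.2% with GATC, SRSF2 shared 23.4% with MFSD11 and SF3A2 shared 15.4% with PLEKHJ1, each of which lies antisense to it. HNRNPA1 shared 20.3%, of which the most with HNRNPA1P48, and HNRNPL shared 20.9%, the most with AC008982.1. HNRNPH2 shared 12.5% with RPL36A-HNRNPH2, and HNRNPA3 shared 11.04%, the most with HNRNPA3P6. The strand setting of the counting and its handling of reads that fit several genes were not given in the sources used here. Values of these 9 members are uncertain to that extent.

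Levels are given first as FPKM, fragments scaled to exonic gene size and library total, which allows genes to be set side by side. Mean FPKM over the 6 libraries ran from 1.42 for U2AF1 to 237.6 for HNRNPA1, with a median of 52.1 over the 40 members. SR proteins spanned 5.34 to 127.8 FPKM around a median of 56.6, hnRNPs spanned 11.6 to 237.6 around 61.8, and U2 factors spanned 1.42 to 57.0 around 37.8. For the 39 members other than U2AF1, the highest library exceeded the lowest by 1.30-fold to 3.09-fold in FPKM, with a median of 1.62-fold. HNRNPA1, HNRNPAB and HNRNPK held the first 3 places, and SRSF2 was the highest SR protein.

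**Figure D1:**
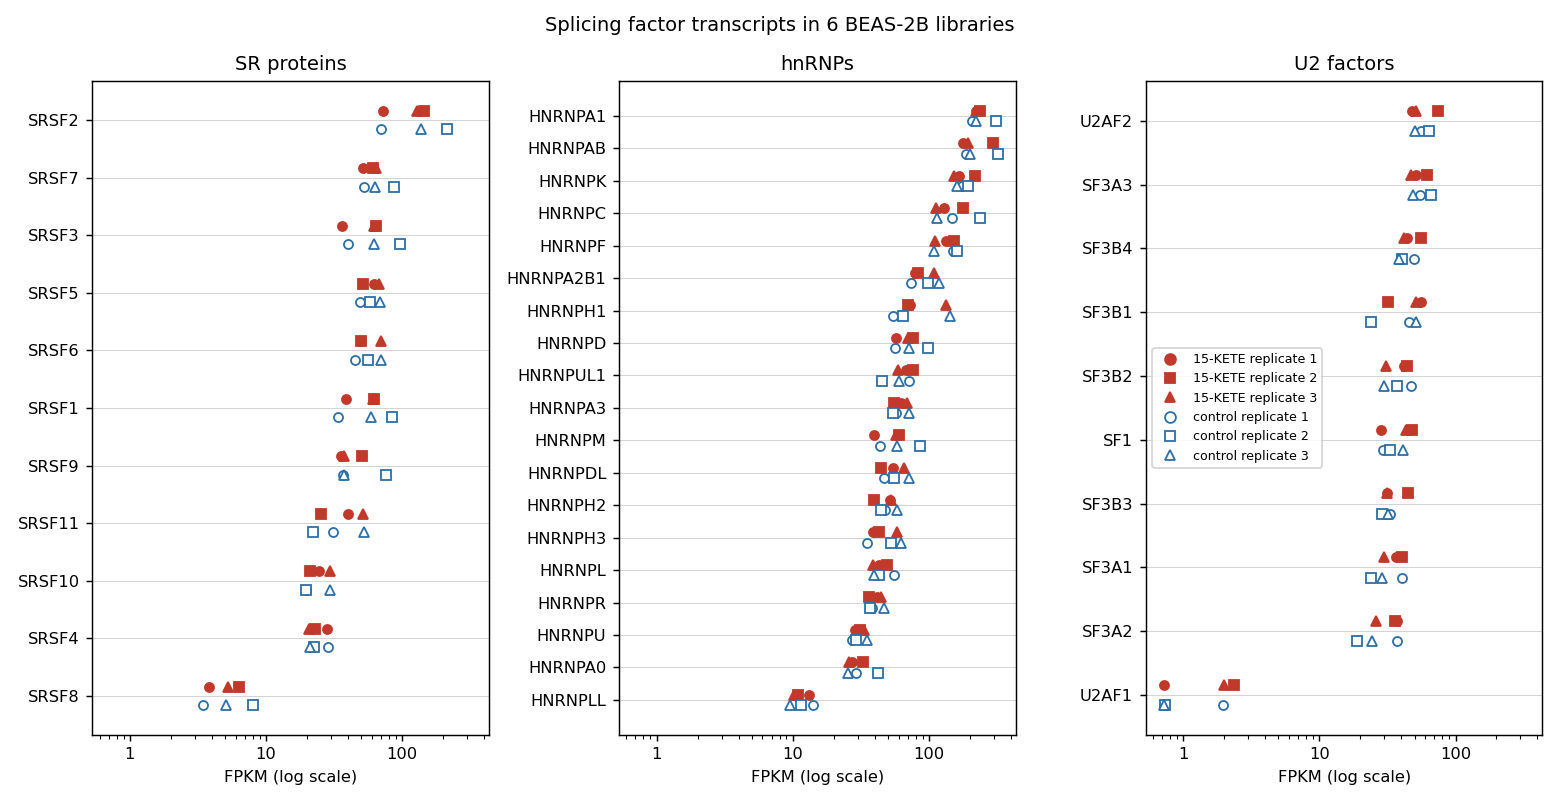
FPKM of the 40 splicing factor transcripts on a log axis, 1 panel per group and 1 row per gene in order of mean FPKM, with filled symbols for the 3 15-KETE libraries and open symbols for the 3 control libraries. Circles, squares and triangles stand for replicates 1, 2 and 3, and for most genes the filled and open circles lie near each other, as do the filled and open triangles.

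In the edgeR quasi-likelihood test of 15-KETE against control, 0 of 40 members had an adjusted p below 0.05, beside 0% of all 15451 genes tested. The smallest adjusted p of a member was 0.9996. With the replicate number as a block the count was again 0 of 40 members, beside 0% of all genes, and the smallest adjusted p of a member was 0.695. At an unadjusted p below 0.05 the count was 0 members and 25 genes (0.162%) without the block, and 0 members and 727 genes (4.71%) with it. DESeq2 and limma-voom also called 0 members. At an unadjusted p below 0.05 they had 68 of 32005 and 32 of 15451 genes, since DESeq2 was run without the expression filter.

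In none of the 40 members did the 3 15-KETE libraries all lie above or all below the 3 control libraries, whereas this was so for 355 genes, 2.3% of those tested, made up of 1.22% higher and 1.07% lower in 15-KETE. Without the block, 28 members had a 95% interval that stayed inside 2-fold in either direction, 70% of them against 50.7% of all genes. With the block this held for 39 members, 97.5% against 78.5%, and U2AF1 was the exception. All 40 members had a mean of at least 10 CPM, whereas only 9791 of all genes tested did. These shares are therefore not matched for level. The fold change was above 0 on the log2 scale for 11 of 40 members, against 49.8% of all genes, namely 2 of 11 SR proteins, 2 of 19 hnRNPs and 7 of 10 U2 factors.

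**Figure D2:**
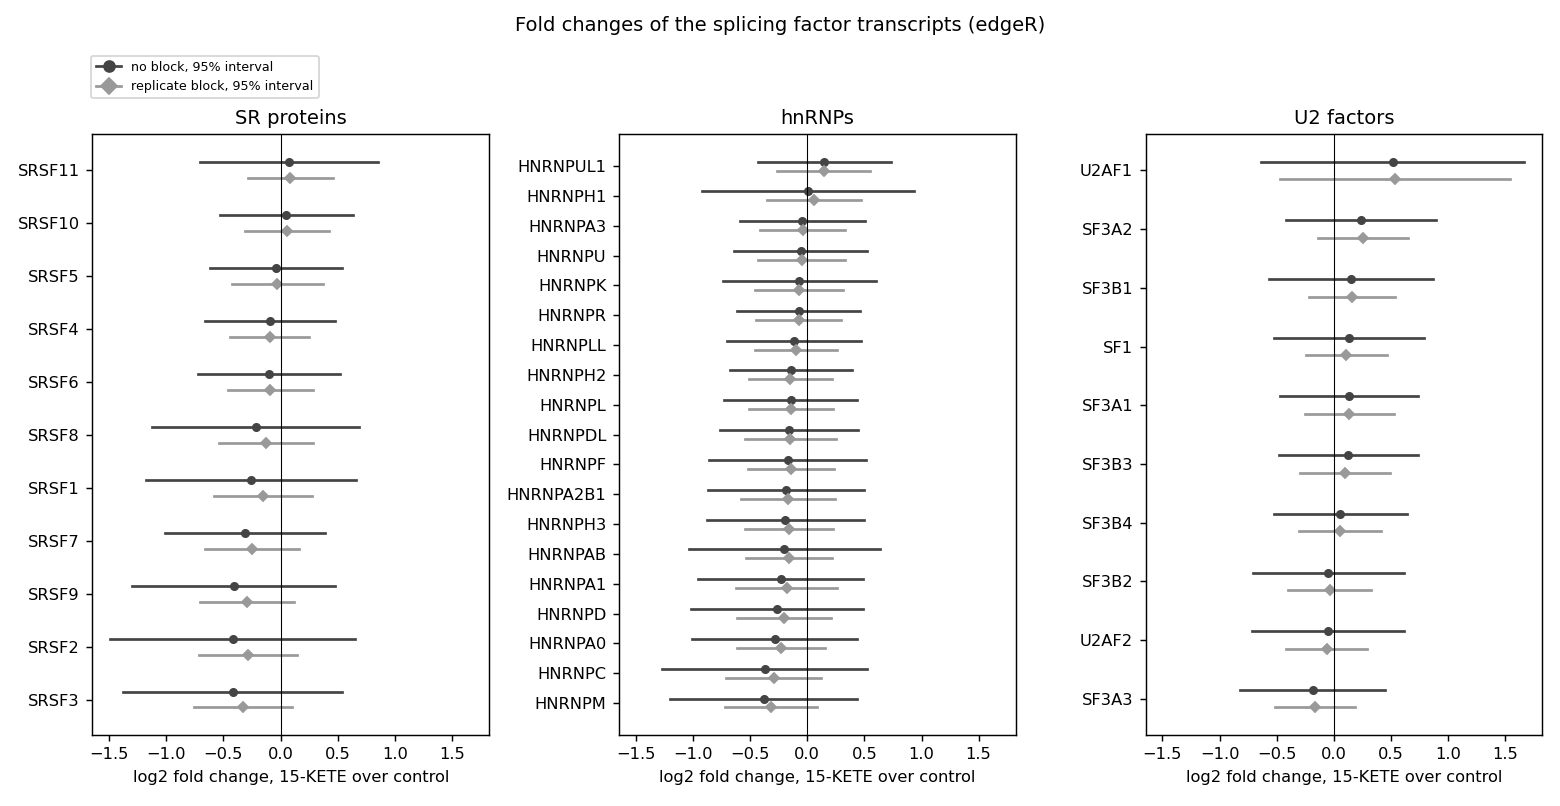
log2 fold change of 15-KETE over control for each of the 40 members from edgeR, with 95% intervals, circles without and diamonds with the replicate number as a block. Every interval crosses 0, the points of most SR proteins and hnRNPs lie left of 0, and the interval of U2AF1 is the widest in the blocked fit.

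Most SR protein transcripts had somewhat lower values in 15-KETE than in control libraries on average, by amounts smaller than the spread between replicates, and the replicate 2 difference was the largest in size for 9 of 11. The median log2 fold change of the 11 SR proteins was -0.22 without and -0.13 with the replicate block, beside -0.0018 for all genes without it. SRSF2, which binds exonic enhancers and also takes part in the release of paused RNA polymerase II, had 72.0, 145.7 and 127.8 FPKM in 15-KETE libraries 1, 2 and 3, against 69.6, 214.9 and 137.1 FPKM in control libraries 1, 2 and 3. The groups overlapped, since control 1 was the lowest library and control 2 the highest. Its log2 fold change was -0.42 ± 0.47 (SE, edgeR adjusted p = 0.9996).

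SRSF3, the smallest SR protein and a factor in mRNA export, had 35.8, 64.4 and 61.6 FPKM in 15-KETE libraries, against 39.7, 96.8 and 62.0 FPKM in control libraries. Here each 15-KETE library was lower than its same-numbered control, but the second control alone stood far above its counterpart. The log2 fold change was -0.42 ± 0.42 without the block (edgeR adjusted p = 0.9996) and -0.33 ± 0.20 with it (edgeR adjusted p = 0.695). SRSF9 had 35.2, 50.8 and 37.3 FPKM in 15-KETE libraries, against 36.9, 75.9 and 37.3 FPKM in control libraries. SRSF7, whose RNA-binding part includes a zinc knuckle, had 51.9, 60.8 and 63.7 FPKM in 15-KETE libraries, against 52.1, 87.4 and 62.8 FPKM in control libraries. In both genes the groups overlapped and the replicate 1 and 3 libraries of the groups lay close together.

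SRSF8, the least abundant SR protein, had 3.81, 6.37 and 5.30 FPKM in 15-KETE libraries, against 3.44, 8.04 and 5.07 FPKM in control libraries. Its order of libraries was the same as that of SRSF2 within the control group, with replicate 2 highest and replicate 1 lowest, and likewise within the 15-KETE group. SRSF11, whose fold change was above 0, had 39.8, 25.3 and 51.3 FPKM in 15-KETE libraries, against 31.2, 22.3 and 52.6 FPKM in control libraries. There replicate 2 was the lowest library of both groups. Of all FPKM of the 11 SR proteins, SRSF2 made up 16.3, 26.0 and 21.4% in 15-KETE libraries, against 17.02, 28.8 and 22.7% in control libraries. That share was lowest in both replicate 1 libraries and highest in both replicate 2 libraries.

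Summed over the group, SR proteins took 0.250, 0.290 and 0.326% of all counts in 15-KETE libraries, against 0.228, 0.369 and 0.329% in control libraries. The means were 0.288 ± 0.0382% in 15-KETE libraries and 0.309 ± 0.0729% in control libraries (SD, n = 3 each). The difference was smaller than the spread within the control group, with p = 0.7 in an exact two-sided permutation test, 0.7 after Benjamini-Hochberg adjustment over the 3 groups of members. A design of 3 against 3 cannot give a p below 0.1. Without control replicate 2 the difference in means was 0.00986 percentage points, of the opposite sign.

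The hnRNP transcripts were the most abundant of the 3 groups and stood likewise, with 17 of 19 fold changes below 0 and none called. Their median log2 fold change was -0.16 without and -0.15 with the replicate block. HNRNPA1, which binds silencers and shuttles to the cytoplasm with mRNA, had 221.1, 238.8 and 222.8 FPKM in 15-KETE libraries, against 208.2, 312.4 and 222.3 FPKM in control libraries. Its mean was 227.6 ± 9.77 FPKM in 15-KETE libraries and 247.7 ± 56.5 FPKM in control libraries (SD, n = 3 each), and control 2 alone gave the higher control mean. HNRNPAB had 177.9, 295.4 and 194.9 FPKM in 15-KETE libraries, against 188.9, 320.7 and 200.1 FPKM in control libraries. HNRNPK, which binds C-rich RNA, had 165.3, 217.2 and 153.6 FPKM in 15-KETE libraries, against 174.2, 194.5 and 159.7 FPKM in control libraries. In HNRNPAB and HNRNPK the replicate 2 libraries were the highest of their groups, and the groups overlapped.

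The hnRNPs of smallest p were HNRNPM, HNRNPC and HNRNPA0. HNRNPM had 39.2, 60.4 and 57.0 FPKM in 15-KETE libraries, against 43.7, 85.9 and 58.5 FPKM in control libraries. Its log2 fold change was -0.38 ± 0.36 (SE, edgeR adjusted p = 0.9996). HNRNPC, which binds U-rich tracts and competes with U2AF2 for them, had 129.1, 178.6 and 112.1 FPKM in 15-KETE libraries, against 147.8, 236.7 and 115.3 FPKM in control libraries. Every 15-KETE library of HNRNPM and HNRNPC was lower than its same-numbered control, while the groups as a whole overlapped. HNRNPA0, which binds AU-rich RNA, had 27.1, 33.0 and 25.8 FPKM in 15-KETE libraries, against 29.1, 42.3 and 25.5 FPKM in control libraries.

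HNRNPH1, a binder of G-rich RNA, had 72.5, 69.9 and 133.3 FPKM in 15-KETE libraries, against 54.1, 65.0 and 143.5 FPKM in control libraries. Both replicate 3 libraries lay above the other 4, and its log2 fold change was 0.0061 ± 0.41. The hnRNPs as a group took 0.948, 1.09 and 1.07% of all counts in 15-KETE libraries, against 0.938, 1.21 and 1.11% in control libraries. The means were 1.03 ± 0.0748% in 15-KETE libraries and 1.09 ± 0.137% in control libraries (SD, n = 3 each), with p = 0.6 in the exact permutation test and 0.7 after adjustment. Without control replicate 2 the difference in means was 0.01012 percentage points, again of the opposite sign.

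The U2 factors had the other sign, with 7 of 10 fold changes above 0 and a median log2 fold change of 0.13 without and 0.10 with the block, and none was called. Without 15-KETE replicate 2 the median was -0.084. U2AF2, the large subunit of the U2 auxiliary factor, had 48.0, 74.0 and 51.3 FPKM in 15-KETE libraries, against 55.5, 63.4 and 50.1 FPKM in control libraries. SF3A2, a subunit of the SF3A complex, had 36.98, 35.91 and 26.04 FPKM in 15-KETE libraries, against 37.37, 18.99 and 24.21 FPKM in control libraries. Control 2 was its lowest library, and the 15-KETE values lay within the range of the controls. The log2 fold change was 0.24 ± 0.29 without the block (edgeR adjusted p = 0.9996) and 0.25 ± 0.18 with it (edgeR adjusted p = 0.699).

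SF3A3, of the same complex, had 51.6, 61.3 and 46.9 FPKM in 15-KETE libraries, against 55.3, 66.0 and 48.3 FPKM in control libraries. Its 15-KETE value was below the control value at each replicate number, unlike that of SF3A2. SF3B1, the scaffold of the SF3B complex that holds the branch point duplex and is recurrently mutated in blood cancers, had 56.1, 31.8 and 51.2 FPKM in 15-KETE libraries, against 45.4, 23.9 and 51.4 FPKM in control libraries. Replicate 2 was lowest in both groups. SF3B4, which binds near the branch site, had 43.7, 55.6 and 41.9 FPKM in 15-KETE libraries, against 49.7, 40.7 and 38.2 FPKM in control libraries, and the groups overlapped. U2 factors took 0.237, 0.262 and 0.223% of all counts in 15-KETE libraries, against 0.243, 0.197 and 0.218% in control libraries. The means were 0.241 ± 0.0201% in 15-KETE libraries and 0.219 ± 0.0230% in control libraries (SD, n = 3 each), with p = 0.4 in the exact permutation test and 0.7 after adjustment.

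U2AF1, the small subunit that reads the AG at the end of the intron, had the largest fold change of the 40 members and the least orderly values. It had 143, 601 and 386 counts in 15-KETE libraries 1, 2 and 3, against 398, 180 and 135 counts in control libraries 1, 2 and 3. In FPKM this was 0.72, 2.37 and 1.98 in 15-KETE libraries, against 1.97, 0.74 and 0.72 in control libraries. The libraries thus fell into 3 high and 3 low ones, with 15-KETE 1 among the low and control 1 among the high. The same-numbered differences, 15-KETE minus control in log2 CPM, were -1.45, 1.44 and 1.44. The log2 fold change was 0.52 ± 0.51 (SE, 95% interval -0.64 to 1.67, edgeR adjusted p = 0.9996), and with the block 0.53 ± 0.46 (edgeR adjusted p = 0.716).

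U2AF1 was called only where both replicate 1 libraries were left out, in the blocked fit, with a log2 fold change of 1.46 (edgeR adjusted p = 0.0471). It was -0.027 without both replicate 2 libraries and 0.034 without both replicate 3 libraries. The copy ENSG00000275895 had 97, 88 and 62 counts in 15-KETE libraries, against 63, 139 and 76 counts in control libraries. At each replicate number the copy differed in the direction opposite to U2AF1. Summed over both genes the counts were 240, 689 and 448 in 15-KETE libraries, against 461, 319 and 211 in control libraries, which left the same 3 libraries high. How many reads fit several places and entered neither count was not given in the sources used here, and their part in these values was not tested.

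Expressed per exonic length, U2AF1 was far below its partner U2AF2, at a mean of 1.42 FPKM against 57.0 FPKM over the 6 libraries. U2AF1 has an exonic size of 11095 bases in the table, against a coding length of 723 bases, and FPKM divides by the exonic size. In counts, which are not divided by size, U2AF1 had 135 to 601 and U2AF2 3407 to 6835. U2AF1 shared 88.4% of its stretches of 100 bases with its copy. Whether reads that fit both genes are missing from its count was not tested, so its low value may not be its true level. The related gene U2AF1L4 had 97, 132 and 101 counts in 15-KETE libraries, against 93, 126 and 106 counts in control libraries, and thus stayed close between the groups at each replicate number.

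**Figure D3:**
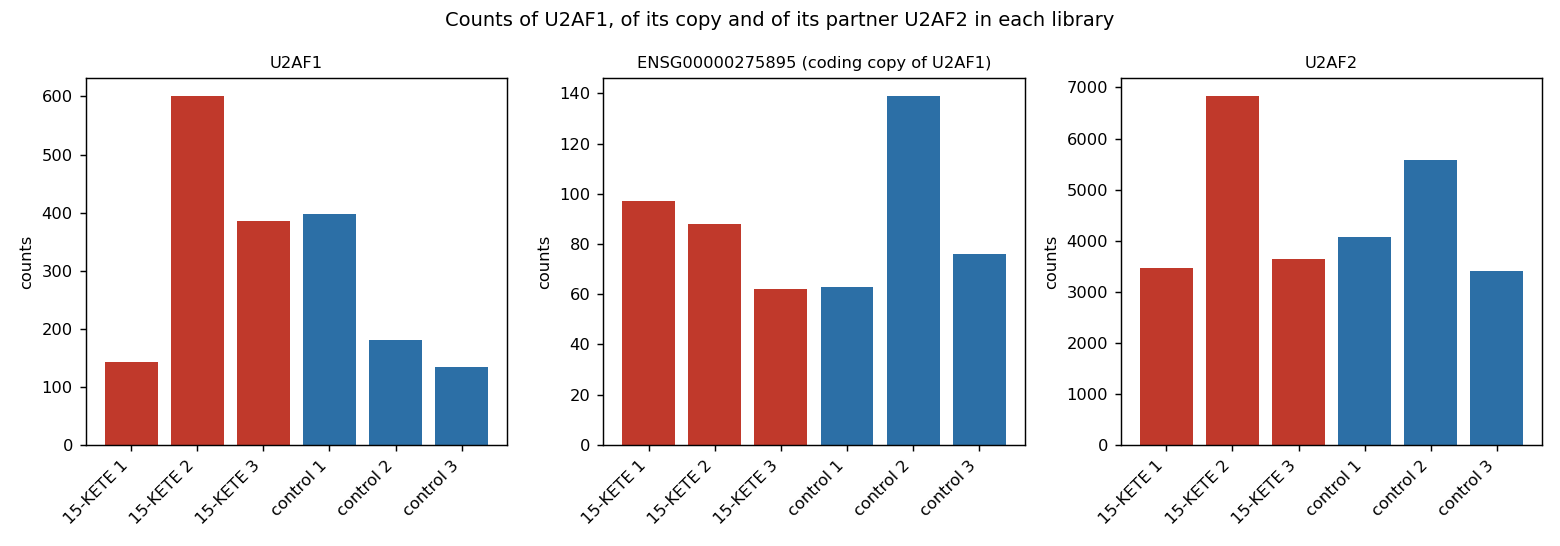
Counts of U2AF1, of its coding copy ENSG00000275895 and of its partner U2AF2 in each library, as bars from 0 with a separate vertical scale per gene, 15-KETE libraries in red on the left and control libraries in blue on the right. U2AF1 is high in 15-KETE 2 and 3 and in control 1, with 601, 386 and 398 counts, whereas U2AF2 peaks in replicate 2 of both groups.

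The replicate numbers pair the libraries, since libraries with the same number deviated together from their group means over all genes. Over the 40 members the median absolute difference in log2 CPM between same-numbered libraries was 0.123 for replicate 1, 0.391 for replicate 2 and 0.0411 for replicate 3. The median distance of a library to the others of its own group was 0.282, 0.353 and 0.346 for 15-KETE libraries 1, 2 and 3, and 0.488, 0.535 and 0.465 for control libraries 1, 2 and 3. At replicates 1 and 3 the same-numbered library was thus the closer one. Control 2 also lay closer to 15-KETE 2 than to its own group, whereas 15-KETE 2 lay slightly closer to its own group than to control 2. By correlation over the members, the library nearest to 15-KETE 2 was control 1 (r = 0.962). Replicate number accounted for a median of 78.5% of the sum of squares of log2 CPM over members, against 73.7% over all genes, and treatment for 5.49% against 8.17%. It took more than 50% in 35 of 40 members, against 76.7% of all genes. Over the 9791 genes with a mean of at least 10 CPM, all 40 members among them, the median for replicate number was 78.0%, close to that of the members. U2AF1 was the opposite case, with 4.57% for replicate number, 10.3% for treatment and 85.1% for neither.

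By replicate number, the medians of the 15-KETE minus control differences in log2 CPM were 0.13, -0.55 and -0.012 for SR proteins at replicates 1, 2 and 3. For hnRNPs they were 0.00010, -0.34 and -0.043, and for U2 factors -0.14, 0.27 and 0.038. SR proteins were higher in the 15-KETE library for 7, 0 and 3 of 11 members at replicates 1, 2 and 3, and U2 factors for 1, 9 and 7 of 10, where all genes gave 50.1, 49.2 and 50.6%. The sign of each group at replicate 1 was therefore the reverse of that at replicate 2 for SR proteins and U2 factors. The replicate 2 difference was the largest of the 3 in size for 31 of 40 members, against 69.2% of all genes. All 3 differences were below 0 in 9 members, against 14.5% of genes, and all 3 were above 0 in 0 members, against 14.6%.

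Without control replicate 2, 27 of 40 members had a fold change above 0, made up of 8 of 11 SR proteins, 10 of 19 hnRNPs and 9 of 10 U2 factors. The medians on the log2 scale were then 0.057, 0.013 and 0.12 for SR proteins, hnRNPs and U2 factors. In FPKM, control 2 was the highest library for 14 members, of which 6 were SR proteins and 7 hnRNPs, and 15-KETE 2 was the highest for 5 of the 10 U2 factors.

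The replicate 2 difference ran with coding length, the length of the longest coding sequence of a gene in GENCODE 29. Spearman's rho between the 2 measures was 0.64 over the 40 members and 0.60 over 12503 genes, and 0.74 over the 39 members without U2AF1. At replicate 1 it was -0.13 over the members and 0.28 over all those genes, and at replicate 3 it was -0.074 over the members and 0.0042 over the genes. With the GC content of the coding sequence, rho over the members was -0.44, 0.089 and 0.40 at replicates 1, 2 and 3, against -0.45, -0.082 and 0.24 over the genes. These correlations are descriptions across genes of the same libraries, which share depth and preparation. The median coding length was 789 bases for SR proteins, 1263 for hnRNPs and 1764 for U2 factors, the order of the groups' replicate 2 medians. Whether coding length accounts for the differences of these groups, or of the wider lists below, was not tested.

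**Figure D4:**
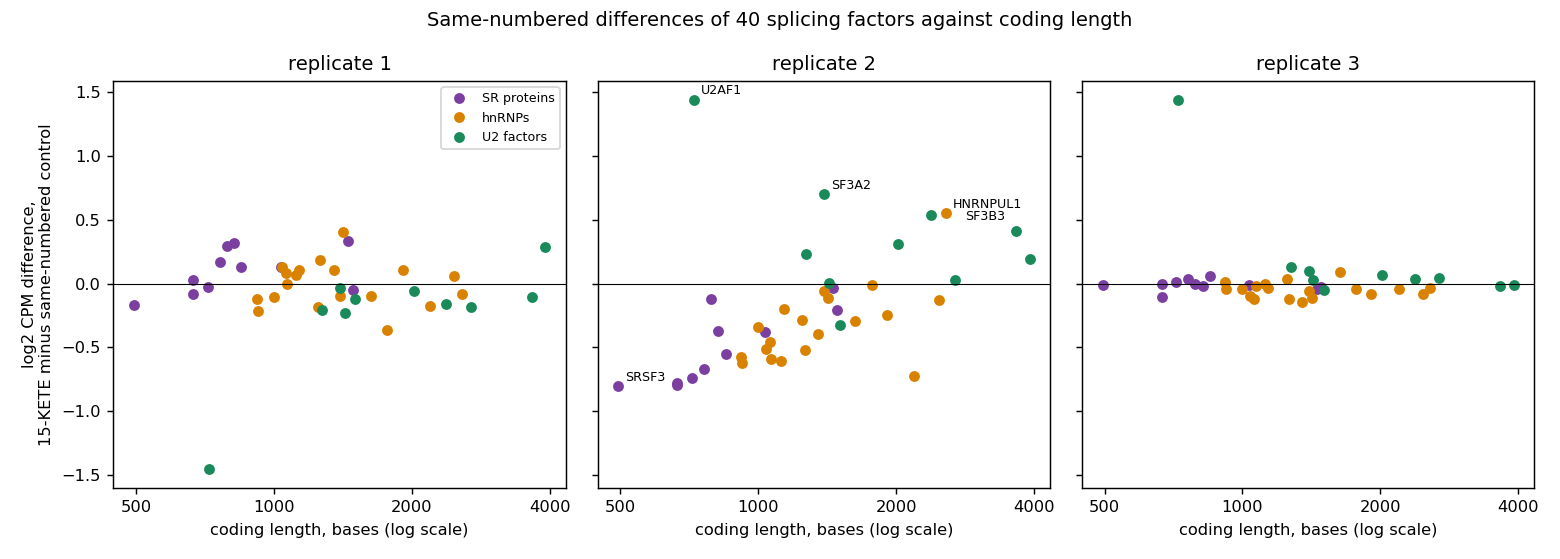
Difference in log2 CPM between the 15-KETE and the control library of the same number against coding length in bases on a log axis, 1 panel per replicate number and 1 point per member, coloured by group. In the middle panel short coding sequences tend to lie low and long ones high, with exceptions that include U2AF1 and HNRNPM. In the right panel all members but U2AF1 differ from 0 by at most 0.147.

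When a smooth trend of each library on coding length and GC content was removed, a correction chosen after the data were seen, the median log2 fold changes were -0.076 for SR proteins, -0.14 for hnRNPs and 0.0025 for U2 factors. No member was called under this correction, with or without the block. Among the members, HNRNPM was a long one with a low value, with a coding length of 2193 bases and a replicate 2 difference of -0.73, and HNRNPUL1, at 2571 bases, had 0.55. SRSF1, at 762 bases, had 38.6, 62.0 and 61.0 FPKM in 15-KETE libraries, against 33.9, 84.7 and 59.2 FPKM in control libraries, with replicate 1 lowest and control 2 highest.

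A further 90 genes of the splicing machinery in 7 lists were set beside the members, and 88 were tested, ESRP1 and SRRM4 being too low. None was called with or without the block, and 45 of 88 fold changes were above 0. The 10 genes of the Sm core and U1 particle, which recognises the start of the intron, all had a fold change below 0, with a median of -0.55. SNRPE, of the Sm ring, had 30.4, 41.0 and 35.3 FPKM in 15-KETE libraries, against 36.7, 81.2 and 37.6 FPKM in control libraries. Its log2 fold change was -0.68 ± 0.41 (SE, edgeR adjusted p = 0.9996). Control 2 stood apart from the other libraries, while the remaining values lay near each other. The median coding length of this list was 382.5 bases and its median replicate 2 difference was -0.98.

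The 14 other U2 and branch site genes had a median of -0.16, with 6 above 0. Their gene of smallest p was SF3B6, an SF3B subunit that contacts the branch point, with 116.9, 114.1 and 109.4 FPKM in 15-KETE libraries, against 125.8, 220.9 and 110.8 FPKM in control libraries. Among 17 genes of the U4/U6.U5 particle 3 were above 0, with a median of -0.23, and LSM5, of the ring that binds U6 RNA, had 10.1, 11.5 and 11.1 FPKM in 15-KETE libraries, against 12.1, 23.3 and 11.8 FPKM in control libraries. In both genes control 2 was the highest library by a wide margin. PRPF8 and SNRNP200, the long core proteins of the same particle, had replicate 2 differences of 1.54 and 1.14 in log2 CPM and were named after their values were seen. At replicates 1 and 3 the differences were -0.035 and 0.050 for PRPF8, and -0.020 and -0.0021 for SNRNP200. In control 2 PRPF8 had 22.25 FPKM, against 63.43 to 75.26 in the other libraries. SNRNP200 had 18.0 FPKM there, against 37.89 to 46.22 in the others.

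The 10 SR-related proteins had 7 fold changes above 0 and a median of 0.12. SRRM2, a very long protein of nuclear speckles, had 68.2, 62.0 and 96.0 FPKM in 15-KETE libraries, against 58.1, 14.4 and 94.6 FPKM in control libraries. Control 2 was low by a wide margin, and without it its log2 fold change was -0.0034, against 0.42 with all libraries. SR kinases were above 0 for 7 of 8 genes with a median of 0.069, and DYRK1A had 3.21, 2.21 and 3.17 FPKM in 15-KETE libraries, against 2.63, 1.88 and 3.02 FPKM in control libraries. Of 18 tested splicing regulators of cell type and state 15 were above 0, with a median of 0.10. KHDRBS1, their gene of smallest p, had 96.0, 96.0 and 85.3 FPKM in 15-KETE libraries, against 97.4, 121.4 and 87.3 FPKM in control libraries. The 11 genes of nonsense-mediated decay and the exon junction complex had 7 above 0 and a median of 0.10, and MAGOH, of that complex, had 28.96, 31.69 and 34.17 FPKM in 15-KETE libraries, against 31.42, 52.55 and 33.89 FPKM in control libraries.

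**Figure D5:**
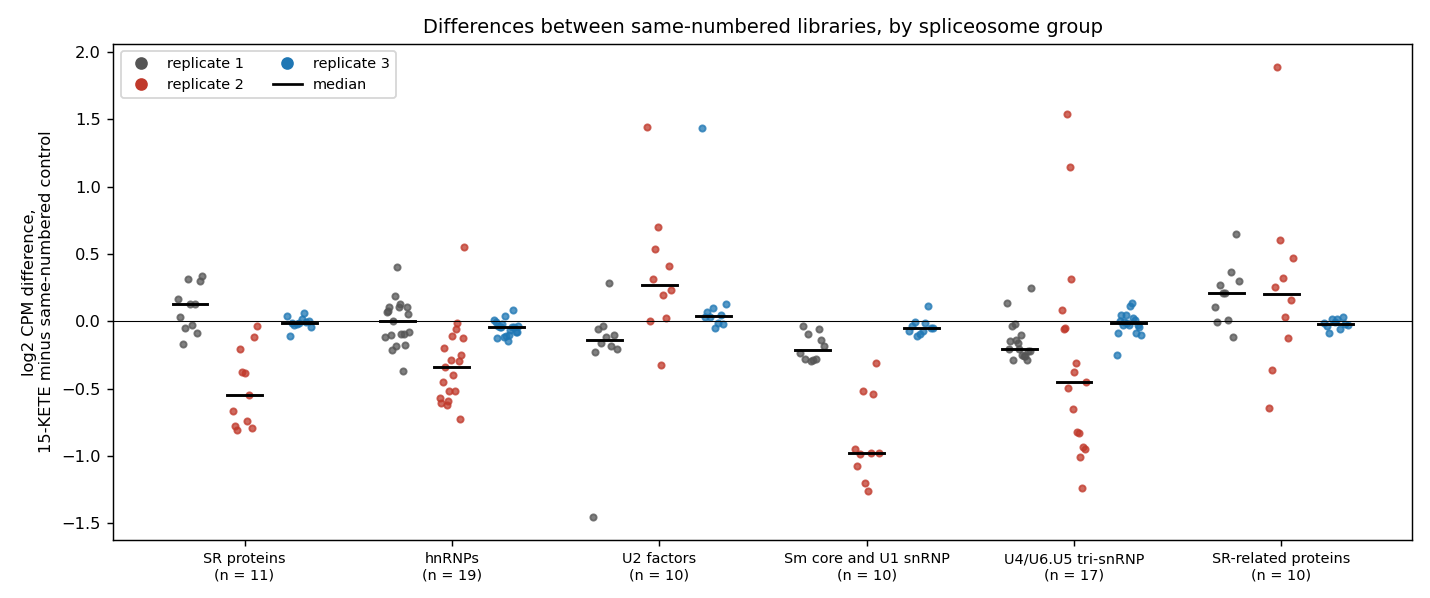
Difference in log2 CPM between the 15-KETE and the control library of the same number for each gene of 6 groups, the 3 groups of members on the left and 3 wider lists on the right, with colours for replicates 1, 2 and 3 and black bars for medians. The replicate 2 points spread most in each group, with medians from -0.98 for the Sm core and U1 list to 0.27 for U2 factors. Most replicate 3 points lie near 0, and the furthest from it are U2AF1 at 1.44 and PRPF3 at -0.25.

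Library totals ran from 17562525 to 22876808 counts in 15-KETE and from 16844781 to 21780953 in control libraries, and 23024 to 25175 genes were detected. Of the simple epithelial keratins, KRT8 had 34.5 to 84.8 FPKM, KRT18 71.4 to 204.5 and KRT7 135.2 to 441.6, whereas KRT19 had 0.39 to 0.73. Of the other keratins, KRT17 had 5.61 to 16.07 FPKM and KRT5 0.99 to 2.04, while KRT14 was at 0. EPCAM and CDH1 stayed at or below 1.09 and CLDN4 at or below 0.26. Of the mesenchymal markers, VIM had 119.4 to 206.8 FPKM and COL1A1 2.48 to 3.68, while COL1A2, DCN and LUM stayed at or below 0.07. Of 10 epithelial markers 4 reached 1 FPKM in every library, and their sum was 262.3 to 534.7 FPKM in 15-KETE libraries and 295.4 to 748.2 in control libraries. Markers of ciliated and secretory cells and of endothelium stayed at or below 0.15 FPKM. Of 5 leukocyte markers only CD14 exceeded 0.11, at 3.30 to 8.55 FPKM. In BEAS-2B libraries, fewer cells of a kind and less RNA per cell cannot be told apart.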

How the data were processed

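RNA of 6 BEAS-2B libraries was analysed. Per the labels' protocols, a SMARTer kit for mRNA was used on polyadenylated RNA. HISAT2 2.2.1 and HTSeq 0.6.1 are among the tools in the submitters' processing notes, which give no role or order. The deposited counts are whole numbers per gene, not normalised, per the file headers. The deposited FPKM values are scaled to exonic gene size and library total, and 100% were recovered from the counts to within 0.01. The build was not given in the sources used here. All 40 members lay on the same chromosome in GENCODE 29 (GRCh38), and 33 had the same start or end. Coordinates are those of the table, counted from 1.

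Counts were fitted in edgeR 4.0.16 (R 4.3.3) with filterByExpr, TMM scaling and the robust quasi-likelihood test over 15451 genes. Benjamini-Hochberg adjustment was used with a threshold of 0.05. The fit was also run on simulated counts, and the outcome of that run is not given here. The block used replicate number as a covariate. Same-numbered libraries deviated together from their group means, with correlations of 0.57, 0.65 and 0.72 over all genes. Differences between same-numbered libraries used log2 CPM with a prior count of 2. Sums of squares were split by replicate number, treatment and the rest. DESeq2 1.42.0 and limma-voom 3.58.1, other scaling, filters and length corrections, and leaving out libraries were alternatives. Named members were, per group, the 3 of highest mean FPKM, the 3 of smallest p and the 2 of smallest p in the blocked fit, besides U2AF1, SF3B1, SRSF2 and SRSF8, and per wider list the gene of smallest p. SRSF1, SRSF11, HNRNPH1, HNRNPUL1 and U2AF1L4 were added after their values were seen. Members and lists were chosen with earlier results of these data known. Shared stretches were counted over 100 bases of GENCODE 29 transcripts on both strands.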

Additional observations from a re-analysis of the deposited data

How the results depend on the processing

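No setting that kept all 6 libraries called a member or changed the sign of a group's median, except the coding length and GC correction with the block, where the U2 median was -0.0011. Besides this median, 11 values changed direction under these settings, counted over the group values and the genes named by rule. All 11 were fold changes of single named genes, and none crossed the threshold. On the log2 scale, HNRNPK was 0.021 and U2AF2 0.037 with no scaling beyond library totals. With the exonic size correction HNRNPAB was 0.048, U2AF2 0.012 and DYRK1A -0.15, and with the replicate block added HNRNPAB was 0.035 and DYRK1A -0.13. With the coding length and GC correction SF3B1 was -0.094 and SRSF8 0.045, and with the block added SF3B1 was -0.091 and SRSF8 0.072. The cause was not tested. Members outside the named ones changed direction too, and are given here only as counts. With the exonic size correction 0 of 11 SR proteins were above 0, against 2 in the main fit. With no scaling 18 of 40 members were above 0, against 11 in the main fit, and the median of all genes was then 0.072.

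Leaving out each library in turn gave 0 genes and 0 members called, and 0 to 8 members whose groups did not overlap, where 4.81 to 20.0% of all genes did not. The 8 members were those without control replicate 1, beside 10.9% of all genes. Medians ran from -0.48 to 0.057 for SR proteins, -0.25 to 0.013 for hnRNPs and -0.084 to 0.14 for U2 factors. Differences in share ran from -0.0608 to 0.00986 percentage points for SR proteins and -0.126 to 0.01012 for hnRNPs. Log2 fold changes ran from -0.75 to 0.19 for SRSF2, -0.70 to 0.11 for SRSF3, -0.49 to 0.053 for SRSF7, -0.48 to 0.31 for SRSF8 and -0.63 to 0.17 for SRSF9. Among hnRNPs they ran from -0.45 to 0.091 for HNRNPA0, -0.37 to 0.10 for HNRNPA1, -0.50 to 0.22 for HNRNPAB, -0.63 to 0.11 for HNRNPC, -0.27 to 0.12 for HNRNPK and -0.60 to 0.055 for HNRNPM. For the rest they ran from 0.15 to 1.10 for U2AF1, -0.31 to 0.16 for U2AF2, -0.33 to 0.061 for SF3A3, -0.052 to 0.34 for SF3B1, -0.12 to 0.15 for SF3B4, -0.37 to 0.020 for KHDRBS1 and -0.0034 to 1.01 for SRRM2.

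Leaving out both libraries of a replicate number, with the block, called 1 gene without replicate 1, which was the member U2AF1, and 12 genes without replicate 3, none of them a member. The groups of 10, 2 and 1 members did not overlap without replicates 1, 2 and 3, beside 16.7, 13.4 and 23.4% of all genes. Without replicate 1, U2AF2 was 0.032, SF3B4 0.20 and U2AF1 1.46, and the U2 median was 0.20. Without replicate 2, HNRNPA1 was 0.025, SF3B4 -0.048, U2AF1 -0.027 and SRSF8 0.084. Without replicate 3, SRRM2 was 1.07.

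With 3 libraries per group, 12 of 40 members had intervals that reached past 2-fold in the fit without the block. With the block only the interval of U2AF1 did. Differences smaller than the intervals were not resolved in either fit. U2AF1, at 135 to 601 counts, was the least deeply covered member.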
